A study of Mus musculus with 4 samples.

Results

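The matrilins and the EMILIN/multimerin glycoproteins are secreted proteins of the extracellular matrix, and 8 of their genes were followed here in mouse embryonic fibroblasts (MEFs), namely Matn1, Matn2, Matn3, Matn4, Mmrn1, Mmrn2, Emilin1 and Emilin2. The 8 genes are 8 of the 31709 gene names on the array, and they were taken by name from the spots that are not controls. They comprise 4 matrilins, 2 multimerins and 2 EMILINs, and 9 probes measured them, since Matn4 had a pair of probes. The family was selected on the processed signals of these same arrays, because Matn4 and Mmrn2 were higher after doxorubicin in WT cells and not in p53-/- cells, so every value below is a description and none is a test.

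Matrilins share von Willebrand factor A domains, assemble through a coiled coil and link collagens and proteoglycans into filamentous networks, most prominently in cartilage. EMILINs and multimerins share the cysteine-rich EMI domain and a long coiled coil. EMILINs associate with elastic fibers, whereas multimerin 1 is stored in platelets and endothelium and multimerin 2 is deposited around endothelial cells. Cell detachment from the matrix was a theme of the study, which asked how p53 acts on cells that doxorubicin, a DNA-damaging drug, has injured.

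Total RNA was measured in 4 conditions, namely p53+/+ (wild-type: WT) MEFs without an agent, WT MEFs with doxorubicin, p53-/- MEFs without an agent and p53-/- MEFs with doxorubicin. Each condition had 1 array, and all 4 arrays lay on 1 slide, so the culture, the place on the slide and the condition cannot be told apart and no p-value can be given. The sources do not say how many embryos or cultures stood behind an RNA sample, and the dose and time of doxorubicin are not stated for the arrays. In what follows, 4 signals in a row always come in the order WT without and with doxorubicin, then p53-/- without and with doxorubicin. A signal is the fluorescence of a spot after background subtraction, in arbitrary units, and signals of different probes are not comparable. A ratio is a difference of log2 signals after each array was scaled to its 75th percentile, and a difference of ratios is the doxorubicin ratio in WT minus that in p53-/- MEFs. The only error that the arrays provide is the spread between repeat spots of 1 probe, an SD of 0.083 for a log2 ratio and 0.12 for a difference of ratios over 248 probes, which covers spots on an array and not cultures.

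The probe for Trp53, the gene disrupted in p53-/- mice, was read first as a check of the labels. Its signals were 1228, 3442, 442 and 543 (mm9 chr11:69404204-69404263), and the 2 p53-/- arrays were the lowest. The log2 ratio of untreated p53-/- over untreated WT MEFs was -1.33, and the doxorubicin ratio was 1.68 in WT and -0.07 in p53-/- MEFs. Across the arrays, the scaling percentile was a signal of 1819 to 2421, and 56.9 to 62.9% of the probes were called well above background by the scanner program. The brightest of 153 negative control spots reached 108, 77.5, 250.1 and 120, and a signal below these values is read here with that limit. Of 8 fibroblast markers, 8 were well above background on all 4 arrays, and 3 were at least 2-fold lower with doxorubicin in WT MEFs, namely Lum, Pdgfra and Pdgfrb. Among all genes well above background on both WT arrays, 10.4% were at least 2-fold lower.

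Matn4, a matrilin found beyond cartilage in many tissues, had the largest doxorubicin ratio of the members in WT MEFs. The signals of its brighter probe (mm9 chr2:164215177-164215236, minus strand) were 990, 20379, 601 and 482. The doxorubicin-treated WT array stood far above the other 3, which lay close together. The signal was 23.5-fold higher with doxorubicin in WT MEFs (log2 ratio 4.55) and 1.60-fold lower with doxorubicin in p53-/- MEFs (log2 ratio -0.68), and the difference of ratios was 5.23. In bulk RNA, a lower signal from fewer cells of a type and one from less RNA per cell cannot be told apart. Untreated MEFs of both genotypes were close in comparison, at a log2 ratio of -0.58 for p53-/- over WT.

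The second Matn4 probe lies upstream in the same transcript (mm9 chr2:164218579-164218638, minus strand), and its sequence is shown because it is the other reading of the largest change in the family.
Matn4 second probe: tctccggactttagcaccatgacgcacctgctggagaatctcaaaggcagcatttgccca
Its signals were 73.4, 3124, 87.3 and 21.4. Again only the doxorubicin-treated WT array was bright, since 73.4 and 87.3 were below the brightest negative control of their arrays and 21.4 was not well above background. The log2 ratio in WT MEFs was 5.60, a 48.6-fold higher signal with doxorubicin. With doxorubicin, p53-/- MEFs were at least 47.7-fold lower than WT MEFs by this probe and 56.3-fold lower by the brighter one, where a bound takes the dim side at the lowest signal that its array still called well above background. The pair disagreed on untreated cells, where the second probe gave a log2 ratio of 0.39 for p53-/- over WT and the brighter one -0.58.

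**Figure D1:**
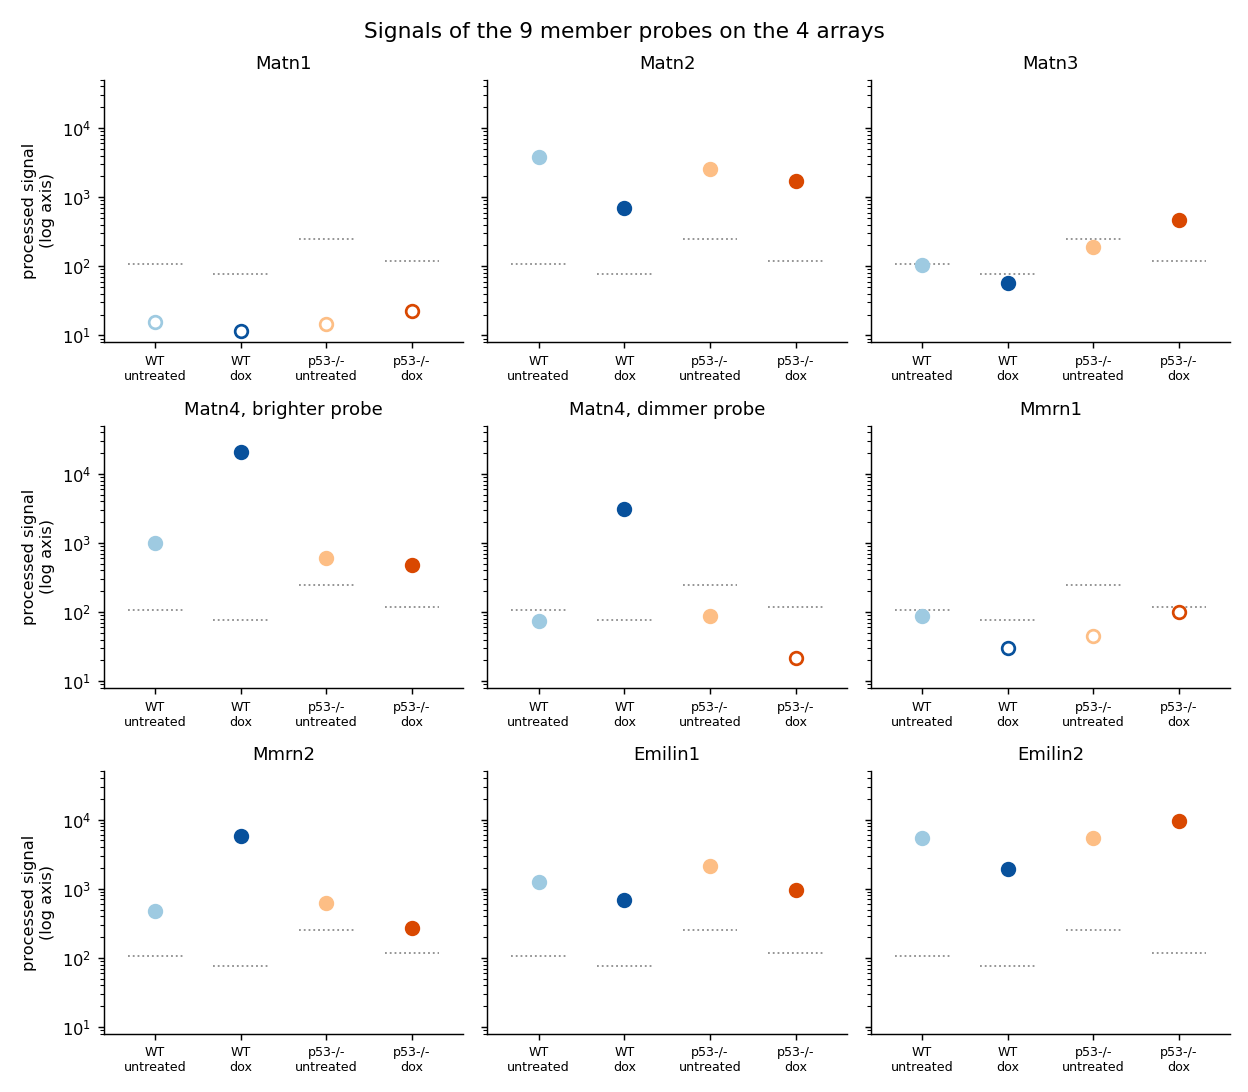
Processed signal (log axis, arbitrary units) of the 9 member probes on the 4 arrays, 1 array per condition, with "dox" for doxorubicin. Filled points were well above background, open points were not, and dotted lines mark the brightest negative control spot of each array. Both Matn4 probes and Mmrn2 are brightest in doxorubicin-treated WT MEFs, at 20379, 3124 and 5714, whereas Matn2 and Emilin2 are dimmest there, at 702 and 1962.

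Matn2, a matrilin widely expressed in connective tissue outside cartilage, ran the other way. Its signals were 3824, 702, 2550 and 1739 (mm9 chr15:34365734-34365793, plus strand), so that doxorubicin-treated WT MEFs had the lowest signal. The signal was 4.78-fold lower with doxorubicin in WT MEFs (log2 ratio -2.26) and 1.89-fold lower in p53-/- MEFs (log2 ratio -0.92), a difference of ratios of -1.34. All neighboring levels in the order of the 4 arrays were apart by more than the spread between repeat spots, the nearest pair being the untreated arrays at a log2 ratio of -0.44. Only 298 of 17513 genes measured in WT MEFs had a lower doxorubicin ratio than Matn2.

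Matn3, a cartilage matrilin mutated in multiple epiphyseal dysplasia, was dim. Its signals were 104, 56.7, 192 and 470 (mm9 chr12:8977503-8977562, plus strand), and only the last, in doxorubicin-treated p53-/- MEFs, was above the brightest negative control of its array. All 4 signals were nevertheless called well above background, which gave log2 ratios of -0.68 (WT) and 0.93 (p53-/-) and a difference of -1.61. With doxorubicin, p53-/- MEFs had a 6.22-fold higher signal than WT MEFs (log2 ratio 2.64). Matn1, the cartilage matrix protein, was at the level of background, with signals of 15.7, 11.6, 14.7 and 22.9 (mm9 chr4:130511217-130511276, plus strand), none of them well above background. No ratio is given for it.

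Mmrn2, which binds the endothelial lectin-like receptors CD93 and CLEC14A, followed the Matn4 pattern. Its signals were 485, 5714, 632 and 275 (mm9 chr14:35216855-35216914, plus strand). Doxorubicin-treated WT MEFs had the highest signal and doxorubicin-treated p53-/- MEFs the lowest, with the untreated arrays between. The signal was 13.4-fold higher with doxorubicin in WT MEFs (log2 ratio 3.75) and 2.96-fold lower in p53-/- MEFs (log2 ratio -1.57), so that the difference of ratios was 5.31. With doxorubicin, p53-/- MEFs were 27.7-fold lower than WT MEFs, whereas without it they were 1.44-fold higher (log2 ratio 0.52). Matn4 therefore had the larger ratio in WT MEFs and Mmrn2 the lower ratio in p53-/- MEFs, and their differences of ratios (5.23 and 5.31) lay closer than the repeat-spot SD of 0.12.

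Mmrn1, the platelet multimerin that carries factor V, was at the edge of detection. Its signals were 87.3, 29.9, 44.4 and 99.4 (mm9 chr6:60938883-60938942, plus strand). It was called well above background only in untreated WT MEFs, where 87.3 was still below the brightest negative control of 108. The signal was at least 1.73-fold lower with doxorubicin in WT MEFs, and at least 1.37-fold lower in untreated p53-/- than in untreated WT MEFs. Mmrn1 signals this dim cannot show whether the 2 multimerins share a pattern.

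Emilin1, an elastic fiber protein that restrains TGF-beta processing, was lower with doxorubicin in both genotypes. Its signals were 1247, 688, 2152 and 958, from a probe spread over mm9 chr5:31222545-31223001 (plus strand), a longer stretch than its 60 bases, so that it crosses an intron. The log2 ratio was -0.67 in WT MEFs (1.59-fold lower) and -1.53 in p53-/- MEFs (2.89-fold lower). Untreated p53-/- MEFs had a 1.90-fold higher signal than untreated WT MEFs (log2 ratio 0.93), and with doxorubicin the genotypes differed by 0.06, less than the repeat-spot SD.

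Emilin2, which can engage death receptors at the cell surface, had, like Matn3, a lower signal with doxorubicin in WT and a higher one in p53-/- MEFs. Its signals were 5446, 1962, 5419 and 9551 (mm9 chr17:71601638-71601697, minus strand). The untreated arrays were close, at a log2 ratio of 0.13, and the doxorubicin arrays lay on either side of them. The signal was 2.43-fold lower with doxorubicin in WT MEFs (log2 ratio -1.28) and 1.37-fold higher in p53-/- MEFs (log2 ratio 0.45), a difference of -1.74. With doxorubicin, p53-/- MEFs therefore had a 3.66-fold higher Emilin2 signal than WT MEFs (log2 ratio 1.87).

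The members were then set beside all genes on the array. A gene counted as measured where the arrays compared both called its brightest probe well above background, and 6 of the 8 members were measured throughout, the others being Matn1 and Mmrn1. With doxorubicin in WT MEFs, 2 members (Matn4 and Mmrn2) were at least 2-fold higher, where 11.0% of 17513 measured genes were, and 2 (Matn2 and Emilin2) at least 2-fold lower, where 10.4% of genes were. In p53-/- MEFs, 0 members were at least 2-fold higher, against 9.24% of 16953 genes, and 2 (Mmrn2 and Emilin1) at least 2-fold lower, against 6.89%. Since the family was picked for its doxorubicin ratios, nothing is read from these shares. The median ratio of the 6 members was -0.68 in WT and -0.80 in p53-/- MEFs, and the median of all genes was 0.01 and 0.00.

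Between genotypes, 1 member (Matn3) was at least 2-fold higher in untreated p53-/- than in untreated WT MEFs, against 2.15% of 17286 genes, and 0 were at least 2-fold lower, against 2.61%. The Matn3 call rests on a log2 ratio of 1.03 between signals below the brightest negative control, and it was lost when the arrays were scaled to the median, quantile normalized or corrected by normexp. With doxorubicin, 2 members (Matn3 and Emilin2) were at least 2-fold higher in p53-/- MEFs, against 11.9% of 17892 genes, and 2 (Matn4 and Mmrn2) at least 2-fold lower, against 10.3%. The comparisons share arrays, so that these counts are not independent of those with doxorubicin.

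The pattern for which the family was chosen was itself uncommon. A doxorubicin signal at least 2-fold higher in WT MEFs and under 1.5-fold higher in p53-/- MEFs was found for 4.54% of 16513 genes measured on all 4 arrays, and Matn4 and Mmrn2 were the 2 members with it. Both were also at least 1.5-fold higher in WT and at least 1.5-fold lower in p53-/- MEFs, which held for 1.03% of genes. The reverse, at least 1.5-fold lower in WT and at least 1.5-fold higher in p53-/- MEFs, held for 1.84% of genes and for 1 member, Matn3. Only 1 Matn3 signal was above the brightest negative control of its array. Under normexp its ratio in WT MEFs was -0.30, short of 1.5-fold. By size, 45 genes had a larger doxorubicin ratio than Matn4 in WT MEFs and 88 a larger one than Mmrn2. For the difference of ratios, 1 of the 16513 genes exceeded Mmrn2 and 2 exceeded Matn4, Mmrn2 being one of these. Genes not well above background on every array were not ranked, and Matn4 and Mmrn2 had been chosen for this pattern. The 1 gene above both was Hyal1, a hyaluronan-degrading enzyme named here after its values were seen, whose doxorubicin ratio was 4.83 (WT) and -0.59 (p53-/-).

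**Figure D2:**
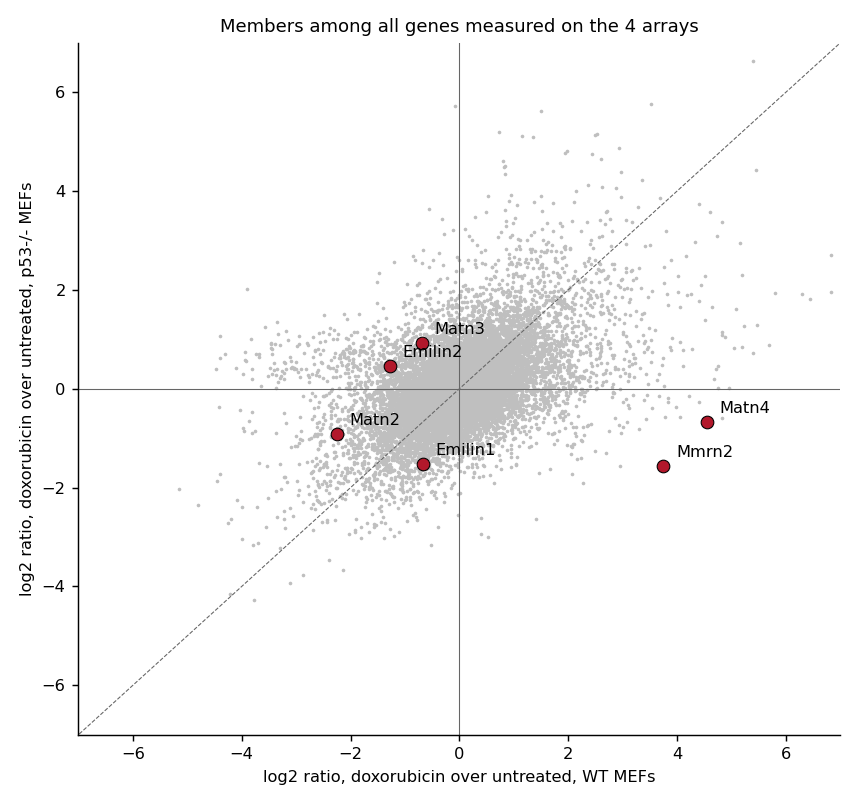
Log2 ratio of doxorubicin-treated over untreated MEFs in WT (x axis) and p53-/- (y axis) for the 16513 genes well above background on all 4 arrays (gray) and the 6 members among them (red). The dashed line marks equal ratios. Matn4 (4.55 and -0.68) and Mmrn2 (3.75 and -1.57) lie at the lower right edge of the cloud, and Emilin2 (-1.28 and 0.45) and Matn3 (-0.68 and 0.93) lie on the opposite side of the line.

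The genes most like Matn4 and Mmrn2 over the 4 arrays were found by the distance between log2 levels, each centered on its own mean, among the 16513 genes. Nearest to Matn4 were Slc18a3 (distance 0.58), the vesicular acetylcholine transporter, Aldh1l1 (0.60), a folate enzyme, Kcnj4 (0.62), a potassium channel, Itgb4 (0.65), a laminin-binding integrin chain of hemidesmosomes, and Ctsf (0.77), a cathepsin. The signals of Itgb4 were 235, 5264, 97.6 and 145, the second far above the rest. Nearest to Mmrn2 were Scn3b (0.72), a sodium channel subunit, Noxo1 (0.80), an NADPH oxidase organizer, Prkaa2 (0.85), a catalytic subunit of AMP-activated kinase, Naa80 (0.87), an actin acetyltransferase, and Dgka (0.92), a diacylglycerol kinase. Of these, Slc18a3, Itgb4, Noxo1 and Prkaa2 were not above the brightest negative control on every array. Matn4 and Mmrn2 were 1.36 apart, which made Mmrn2 the gene of rank 21 for Matn4 and Matn4 that of rank 35 for Mmrn2.

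The nearest annotated genes on the chromosome were read next, from the order of genes in a RefSeq table. Sncg, the gene for gamma-synuclein and the neighbor of Mmrn2 on one side, had signals of 626, 28225, 134 and 316. As for Mmrn2, the doxorubicin-treated WT array was far above the rest, with a log2 ratio of 5.68 in WT and 0.88 in p53-/- MEFs and a difference of 4.81. Unlike Mmrn2, Sncg was already lower in untreated p53-/- MEFs, at a log2 ratio of -2.08 over untreated WT MEFs, and the p53-/- signal of 134 was below the brightest negative control of its array (250.1). Bmpr1a, a BMP receptor on the other side of Mmrn2, had signals of 5749, 2654, 3683 and 2290 and was lower with doxorubicin in both genotypes, at log2 ratios of -0.93 and -1.05.

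Rbpjl, which encodes a transcription factor of the pancreas, overlaps Matn4 on the opposite strand. Its signals were 22.8, 458, 24.7 and 62.8, and only doxorubicin-treated WT MEFs were well above background. The signal was at least 9.21-fold higher with doxorubicin in WT MEFs, and at least 7.0-fold lower in p53-/- than in WT MEFs with doxorubicin. Slpi, a secreted protease inhibitor on the other side of Matn4, had signals of 50.8, 166, 37.2 and 388 and was highest in doxorubicin-treated p53-/- MEFs. It was at least 3.35-fold higher with doxorubicin in WT MEFs and at least 5.20-fold higher in p53-/- MEFs.

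**Figure D3:**
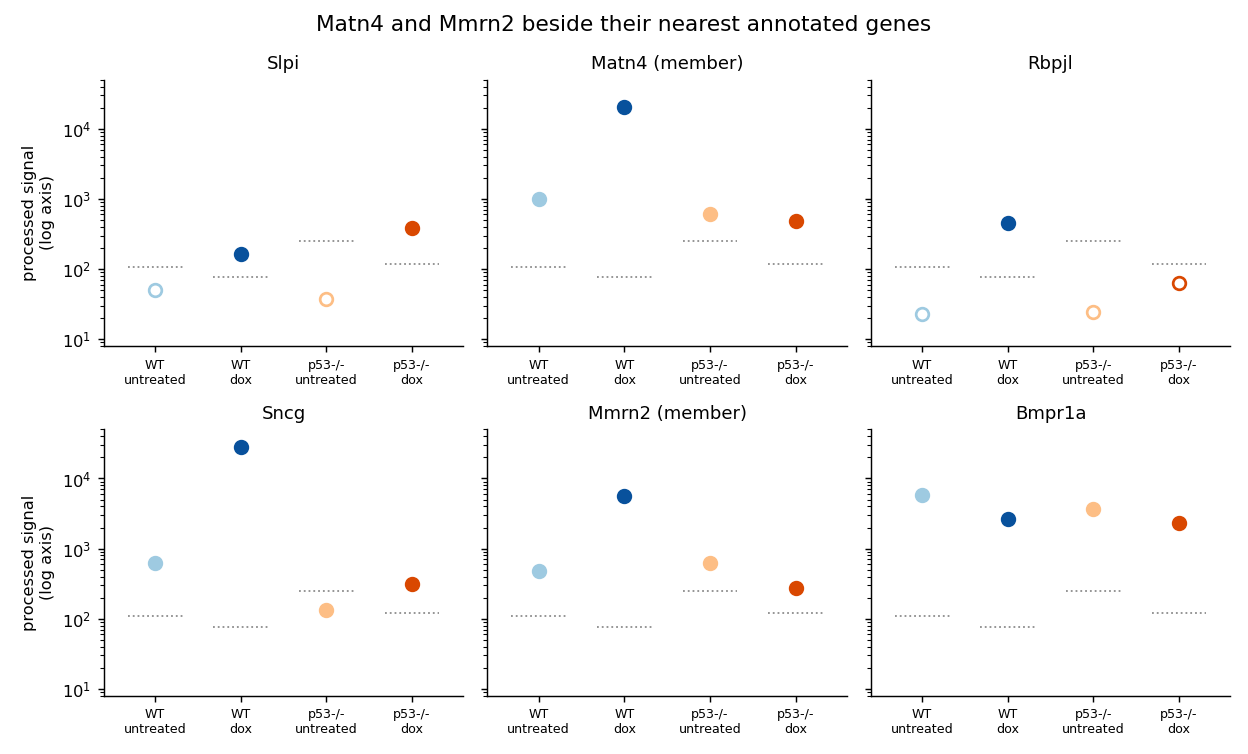
Processed signal (log axis, arbitrary units) of Matn4 (brighter probe) and Mmrn2 and of the nearest annotated gene on each side, on the 4 arrays, drawn as in the plot of the member probes. Rbpjl beside Matn4 (458) and Sncg beside Mmrn2 (28225) are brightest in doxorubicin-treated WT MEFs, whereas Slpi is brightest in doxorubicin-treated p53-/- MEFs (388) and Bmpr1a in untreated WT MEFs (5749).

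Around the other members, log2 ratios in WT and p53-/- MEFs were 1.73 and 0.33 for Wdr35 (a ciliary transport protein, beside Matn3). They were -1.73 and -1.36 for Smchd1 (a chromatin protein, beside Emilin2) and -1.29 and -1.14 for Ptpru (a receptor phosphatase, beside Matn1). Another 7 measured neighbors were within 2-fold in both genotypes, from -0.75 for Lpin2 in p53-/- MEFs to 0.75 for Khk in p53-/- MEFs. The gene 9430069I07Rik, which overlaps Matn2, was not well above background on any array.

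The upstream sequence of Matn4 is given because 2 overlapping genes, Matn4 and Rbpjl, were high in the same condition. The table of RefSeq promoters (GRCm38.p6) held the 250 bases before a transcription start for 6 of the 8 members, in 8 windows, and Matn2 and Mmrn2 had no entry. The window before the first Matn4 start is chr2:164405161-164405410 on the minus strand and lies within Rbpjl. It is written 5′ to 3′ in lower case throughout, since none of the motifs searched, which would stand in capitals, occurred in it.
Matn4 upstream window: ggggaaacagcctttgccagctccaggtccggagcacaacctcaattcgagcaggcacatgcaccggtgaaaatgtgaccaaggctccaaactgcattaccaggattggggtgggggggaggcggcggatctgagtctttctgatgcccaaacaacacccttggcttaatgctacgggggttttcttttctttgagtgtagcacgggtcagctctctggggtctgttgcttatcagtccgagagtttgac
Searched on both strands were the p53 half-site, AP-1 (TGANTCA), the GC box (GGGCGG) and the TATA box (TATAAA). Over all 32851 windows, these were present in 7.13%, 6.75%, 32.7% and 12.4%. In the members' 8 windows, the p53 half-site, AP-1 and TATA box were present in 0, and the GC box in 4, namely those of Matn1 and Matn3, the window before the second Matn4 start and 1 of the 2 Emilin2 windows. An absent match says only that these letters were not in the 250 bases.

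Lists of related genes were counted as a description, with the members themselves left out. Of all measured genes, 11.0% were at least 2-fold higher and 10.4% at least 2-fold lower with doxorubicin in WT MEFs. In p53-/- MEFs these shares were 9.24% and 6.89%. Of 7 measured genes with an EMI domain, 0 were at least 2-fold higher and 4 at least 2-fold lower with doxorubicin in WT MEFs (Megf10, Col26a1, Tgfbi and Postn), and of 6 measured in p53-/- MEFs, 1 was lower (Megf10). The median log2 ratio was -1.53 in WT and -0.59 in p53-/- MEFs, where the median of all genes was 0.01 and 0.00. Tgfbi, a matrix protein that binds integrins, had signals of 31583, 5400, 37277 and 46325, which gave log2 ratios of -2.36 (WT) and -0.05 (p53-/-). Col26a1, a collagen with an EMI domain, had log2 ratios of -2.60 and -0.91, and periostin (Postn) -1.53 and -0.75. Emilin3, the remaining EMILIN, named here after its values were seen, was dim, with signals of 105, 91.9, 69.3 and 158.

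Of 7 measured matrix genes with von Willebrand A domains, 3 were at least 2-fold higher with doxorubicin in WT MEFs (Coch, Vwf and Vwa1) and 3 at least 2-fold lower (Col14a1, Col6a2 and Col6a1). The untreated signals of Coch and Vwf were below the brightest negative control of their arrays. In p53-/- MEFs, 1 of 6 was higher (Coch) and 0 were lower, and the median log2 ratio was -0.97 in WT and -0.88 in p53-/- MEFs. Col14a1, a collagen on the surface of fibrils, had log2 ratios of -2.22 and -0.95, Col6a2, a chain of the microfibrillar collagen VI, -2.05 and -0.87, and Vwa1, a protein of the pericellular matrix, 1.18 and 0.24. Matrilins and these genes therefore held ratios of both signs in WT MEFs.

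Among cartilage matrix genes and matrilin partners, 9 of 14 were measured. In WT MEFs, 2 were at least 2-fold higher with doxorubicin (Col9a2 and Col11a2) and 2 at least 2-fold lower (Col11a1 and Dcn), with a median log2 ratio of -0.31. In p53-/- MEFs, 0 were higher and 2 lower (Col11a1 and Comp), with a median of -0.65. Col9a2, a chain of the collagen that coats cartilage fibrils, had signals of 747, 5655, 1439 and 1407, so that doxorubicin-treated WT MEFs stood out, with doxorubicin ratios of 3.11 (WT) and -0.40 (p53-/-) and a difference of 3.51. Comp, a pentameric partner of matrilins in cartilage, had log2 ratios of 0.98 and -1.02, and Col11a2, a fibrillar collagen chain, 1.14 and -0.62.

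Elastic fiber and microfibril genes were bright on all arrays, and 17 of 17 were measured. In WT MEFs, 0 were at least 2-fold higher with doxorubicin and 6 at least 2-fold lower, with a median log2 ratio of -0.37. In p53-/- MEFs, 1 was higher (Efemp1) and 9 were lower, with a median of -1.0. Fbn2, a fibrillin of developing microfibrils, had log2 ratios of -3.52 (WT) and -2.20 (p53-/-), and Mfap5, a microfibril glycoprotein, -2.59 and -1.21. Mfap4, an elastic fiber protein, had log2 ratios of -0.15 and -2.0, the largest difference of ratios among the measured genes of the list (1.85). Emilin1, which sits on these fibers, likewise had the lower ratio in p53-/- MEFs.

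**Figure D4:**
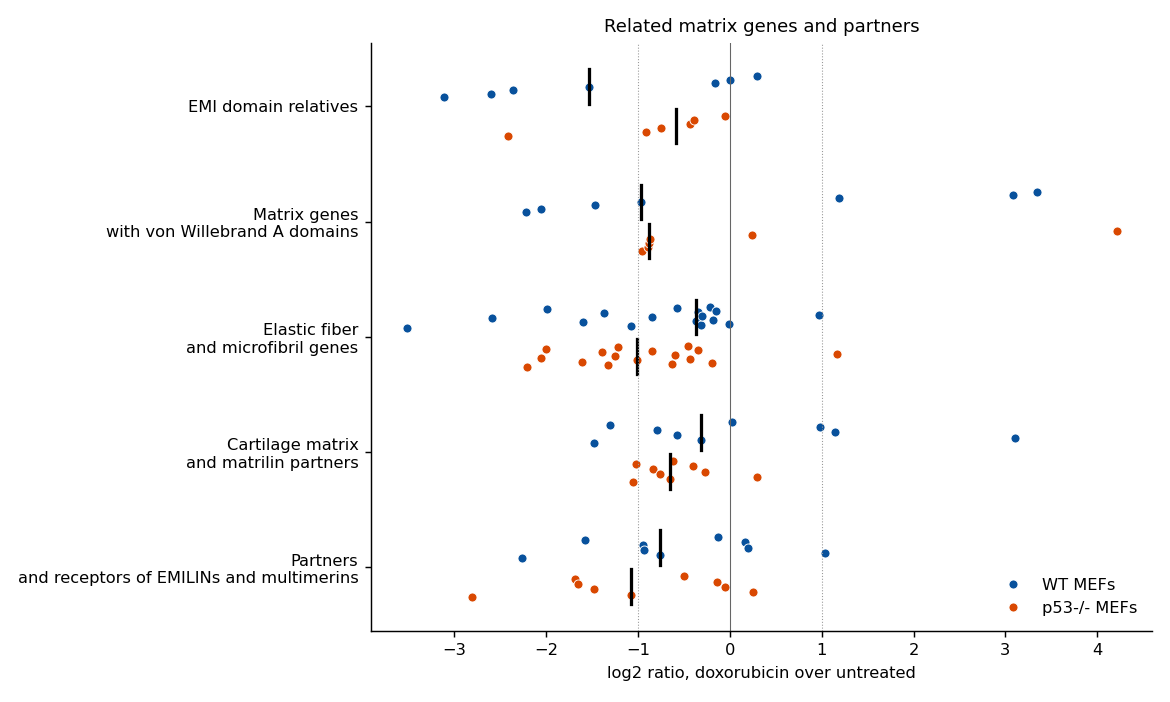
Log2 ratio of doxorubicin-treated over untreated MEFs for the measured genes of 5 lists of related matrix genes and partners, in WT (blue) and p53-/- MEFs (orange), with black bars at the medians and dotted lines at 2-fold. Most points lie below 0 in both genotypes, and Col9a2 (3.11 in WT MEFs) and Coch (4.21 in p53-/- MEFs) lie farthest to the right in their lists.

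Of the partners and receptors of EMILINs and multimerins, 9 of 12 were measured. In WT MEFs, 1 was at least 2-fold higher with doxorubicin (Tnfrsf10b) and 2 at least 2-fold lower (Itgb3 and Itga9), with a median log2 ratio of -0.76. In p53-/- MEFs, 0 were higher and 5 lower (Itga9, Itga4, Itgb3, Cd248 and Vegfa), with a median of -1.08. Itga9 and Itga4, integrin chains of receptors for EMILIN1, had log2 ratios of -1.58 and -2.80, and of -0.94 and -1.69. Tnfrsf10b, the mouse TRAIL death receptor, had signals of 11737, 21163, 2814 and 3498, with both p53-/- arrays low and log2 ratios of 1.04 and -0.05. Of the multimerin 2 receptors, chosen for mention after their values were seen, Cd93 had signals of 780, 768, 908 and 1395, and Clec14a had signals of 348, 9.45, 71.4 and 39.2 and was well above background only without doxorubicin.

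Since Mmrn2 marks endothelium, Mmrn1 platelets and endothelium, and Matn1 and Matn3 cartilage, markers of those cells were counted on the same arrays. Of 10 endothelial markers, 4, 7, 4 and 4 were well above background, and their summed signal in units of the array's 75th percentile was 5.69, 5.85, 4.59 and 4.30. Such a sum adds probes that are not comparable with each other, so the brightest probes set it, and it is given for the comparison of arrays alone. The brightest probes were those of Kdr, a VEGF receptor, with signals of 7373, 7434, 5269 and 5330, and of Egfl7, a secreted endothelial protein, with 3946, 2634, 2727 and 4354. Markers with dimmer probes were not alike. Cdh5 and Tie1 were not well above background on any array, and Pecam1 was on all, with signals of 207, 118, 168 and 197. Tek (17.9, 77.7, 44.0 and 87.8), Cldn5 (12.9, 77.8, 12.6 and 43.0) and Esam (21.8, 88.4, 29.6 and 50.5) passed that call on the array of doxorubicin-treated WT MEFs alone, where Mmrn2 was brightest. Robo4 (13.1, 133, 12.6 and 173) passed it on both doxorubicin arrays, and Emcn (177, 22.4, 343 and 127) on both untreated ones. The lowest signal called well above background was 56.7, 44.3, 57.9 and 87.1, so the limit of the call differed between arrays. In doxorubicin-treated WT MEFs, Tek and Cldn5 barely passed the brightest negative control (77.5). The part of endothelial cells in the Mmrn2 signals was not tested.

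Of 8 chondrocyte markers, 7 were well above background on every array, and Ucma was not on any. Their summed signal was 8.88, 6.24, 12.3 and 7.37, highest in untreated p53-/- MEFs, and Col2a1 (13674, 8075, 19459 and 13998) and Col10a1 (3301, 1677, 1483 and 1242) were the brightest. The sum was lowest in doxorubicin-treated WT MEFs, where Matn4 was highest, while Comp (336, 582, 549 and 349) and Col11a2 (137, 265, 172 and 144) had their highest signals on that array, and the part of chondrocytes in the Matn4 signals was not tested.

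Of 6 megakaryocyte and platelet markers, 3, 5, 2 and 3 were well above background, with sums of 0.745, 2.23, 0.632 and 1.57. Pf4 (1144, 1607, 1001 and 3413) was the brightest of them by mean log2 signal, followed by Ppbp (223, 204, 73.5 and 128), and Gp1ba was at background throughout. The sum was highest in doxorubicin-treated WT MEFs through Gp9, a platelet receptor subunit with signals of 16.7, 1701, 16.1 and 25.4. Without Gp9, a sum computed after the values were seen, it was 0.737, 1.30, 0.623 and 1.56 and highest in doxorubicin-treated p53-/- MEFs, and its part in the signals of Matn4 and Mmrn2 was not tested. Of 5 leukocyte markers, 4, 5, 4 and 3 were well above background, with sums of 2.78, 2.06, 2.46 and 2.58. Csf1r (4826, 2739, 4128 and 5530) and Adgre1 (577, 583, 275 and 529) were the brightest.

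The fibroblast sum was 655, 541, 555 and 446, with the brightest probes for Col1a2 (609265, 381815, 484340 and 357482) and Col1a1 (163163, 170854, 157117 and 170447), chains of collagen I. Dimmer markers differed more between arrays than this sum. Lum, a proteoglycan of collagen fibrils, had signals of 18970, 595, 6819 and 1729, with a doxorubicin ratio of -4.81 (WT) and -2.34 (p53-/-). Pdgfra, a growth factor receptor, had signals of 2728, 233, 4172 and 2892 (ratios -3.36 and -0.89), and Pdgfrb 33756, 5450, 30838 and 11939 (ratios -2.44 and -1.73). The median ratio of the 8 fibroblast markers was -0.61 in WT and -0.52 in p53-/- MEFs. These lower signals lie on the array where Matn4 and Mmrn2 were highest and Matn2 and Emilin2 lowest, and their part in the members' values was not tested.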

How the data were processed

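Cy3-labeled RNA (200 ng of total RNA as input) was hybridized by the authors to 1 Agilent whole mouse genome array per condition. Feature Extraction (version 10.7.3.1, probe positions on mm9) subtracted the background, and the deposited spot intensities were not normalized between arrays; the deposited table of intensities held equal values. The deposited flags for well above background, saturation and outliers were used as given, and 0 spots were saturated. Of 43020 spots per array, 145 to 168 outliers were left out, repeat spots were averaged on the log2 scale (39429 probes), and each array's 75th percentile was subtracted. Genes with several probes were represented by the one with the highest mean signal. Precision is limited by the number of arrays, and no test was run.

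A RefSeq table (GRCm38.p6) named 26049 probes by accession, 3200 by symbol and 930 by synonym, and 9250 kept the name in the file. Each member probe was assigned by the file to a transcript of its gene; whether it lay in coding or untranslated sequence was not determined. Members and lists were chosen with earlier results of these data known. Named genes were the 8 members with every probe, the 3 genes of each list with the largest difference of ratios among those well above background on all 4 arrays, the nearest gene on each side, the 5 genes nearest in pattern to Matn4 and to Mmrn2, Trp53 and the 2 brightest markers per cell type, of which 1 neighboring gene is not reported here; list genes counted as at least 2-fold apart were also named where they were 5 or fewer.

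Values were recomputed with array median scaling, with quantile normalization, with normexp (limma 3.58.1, R 4.3.3, offset 50), no filter on dim probes, signals above the brightest negative control, a mean over the probes of a gene, its probe with the lowest mean, the deposited table, and limits of 1.5-fold and 3-fold. A slide effect could not be fitted with 1 slide. Steps were tested on simulated arrays. Python 3.11.15 with numpy 2.4.6, pandas 2.3.3 and matplotlib 3.10.9 was used.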

Additional observations from a re-analysis of the deposited data

Results flagged for a closer look

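The doxorubicin ratio had opposite signs in the 2 genotypes for 4 of the 6 measured members, and for 34.5% of the 16513 genes measured on all 4 arrays, many with small ratios. A difference of ratios at least as large as that of Matn3, with opposite signs, was found for 4.83% of those genes. The difference of log2 ratios, WT minus p53-/- MEFs, was 5.23 for Matn4 and 5.31 for Mmrn2, both higher with doxorubicin in WT and lower in p53-/- MEFs. It was -1.61 for Matn3 and -1.74 for Emilin2, both lower in WT and higher in p53-/- MEFs. With 1 array per condition, these differences were not tested, and Matn4 and Mmrn2 had been chosen for them.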

How the results depend on the processing

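With 1 array per condition, the culture, the array's place and the condition cannot be told apart, and no alternative changes that. No paired analysis was possible because each condition had 1 array. Of 232 values for 30 ratios and differences of the members under the alternatives, 191 stayed within the spread between repeat spots and 41 moved beyond it, and 0 of those at least 2-fold apart changed sign. Ratios under 2-fold that did change sign were p53-/- over WT for Matn4 without doxorubicin (0.39 with the dimmer probe) and for Emilin1 with it (-0.0067 with the array median). Under normexp, the difference of ratios was 5.05 for Matn4, 4.90 for Mmrn2 and -1.05 for Matn3 (-1.61 without normexp). It was 6.61 for Matn4 as the mean of its probes, in which a probe not well above background entered. The number of members higher in untreated p53-/- MEFs went from 1 to 0 with the array median, quantile normalization, normexp, signals above the brightest negative control or a limit of 3-fold, and to 2 at 1.5-fold. With doxorubicin, the number higher in p53-/- MEFs went from 2 to 1 above the brightest negative control, and the number lower from 2 to 1 with the dimmer Matn4 probe. At 2-fold, 3 members were lower with doxorubicin in WT MEFs with quantile normalization or without the filter on dim probes. In p53-/- MEFs, 3 were lower with the array median or the mean of a gene's probes. At limits of 1.5-fold and 3-fold, 4 and 1 members were lower with doxorubicin in WT MEFs (2 at 2-fold). In p53-/- MEFs, 4 and 0 were lower (2 at 2-fold), and at 1.5-fold 1 was higher (0 at 2-fold). No share of all genes is given at 1.5-fold and 3-fold or for the counts that moved under an alternative, so nothing is read from them. Scaling to the array median moved the all-gene median to -0.27 (WT) and -0.30 (p53-/-), and the share of higher among genes at least 2-fold apart from 51.4 to 32.1% and from 57.3 to 31.3%. Without the filter on dim probes the shares were 63.1 and 66.7%, and above the brightest negative control 43.8% in p53-/- MEFs. The cause was not tested. Signals of Matn1, Mmrn1, Matn3 and the second Matn4 probe at or near background limit what their ratios can show.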

Other observations

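Several other matrix genes with von Willebrand A domains, chosen for mention after their values were seen, had higher signals with doxorubicin in both genotypes, unlike Matn4. Coch, an inner ear matrix protein, had signals of 64.5, 576, 84.4 and 2015, with log2 ratios of 3.35 (WT) and 4.21 (p53-/-). Vwf, the endothelial and platelet factor that names the domain, had signals of 68.9, 512, 51.6 and 519. The untreated signals of Coch and Vwf were all below the brightest negative control of their arrays, and 51.6 was not well above background. Vit (vitrin) was well above background only on the 2 doxorubicin arrays, with a log2 ratio of 0.54 for p53-/- over WT MEFs. Vwa2 had signals of 15.3, 368, 14.5 and 100.1, of which only that of doxorubicin-treated WT MEFs was well above background. In p53-/- MEFs the Vwa2 signal was higher with doxorubicin as well, but it was not called.

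Among the platelet genes besides Gp9, Itga2b, an integrin chain of platelets named here after its values were seen, had signals of 64.7, 303, 14.4 and 35.7. Only doxorubicin-treated WT MEFs had it well above background. Mmrn1 had its lowest signal on that array, 29.9, but this was not well above background and cannot be set against Itga2b. Other platelet markers did not follow Itga2b. Treml1 (80.1, 233, 67.1 and 163) was higher with doxorubicin in both genotypes, at log2 ratios of 1.73 (WT) and 0.92 (p53-/-). Its untreated signals were below the brightest negative control of their arrays. Pf4 had log2 ratios of 0.68 and 1.40, and Ppbp 0.06 in WT MEFs.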
